A study of Homo sapiens with 24 samples.

Results

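The question here was what a cDNA added to tumours that carried the hairpin labelled shNT and were given doxycycline. It was read from 6 of the 24 RNA-seq libraries of the series, the 3 labelled shNT cDNA dox and the 3 labelled shNT dox, chosen by their labels alone. All came from COLO320DM, a cell line of human colorectal cancer, grown as xenografts. Both groups carried shNT and received the doxycycline diet, which began when tumours averaged 150 mm3. Both were taken at 72 hr, on day 3. The cDNA was the one labelled difference in treatment. The library names also call the shNT groups without the cDNA Model1 and those with it Model3. With or without doxycycline, the cDNA thus cannot be told apart from any other difference between these models. The other 18 libraries form the 6 further combinations of hairpin (sh1487 or shNT), cDNA and doxycycline, and 6 of them, shNT cDNA no-dox and shNT no-dox, served here to read the same cDNA without doxycycline. The labels do not say what the cDNA encodes, what promoter drives it, whether doxycycline acts on it, what sh1487 targets, or whether a line is a clone or a pool. Nor do they tie a replicate to a mouse or tumour, so the p-values weigh differences against a spread that may be technical.

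Poly(A) RNA was sequenced, and reads recovered from the deposited values came to 44979443, 61125608 and 48015228 in shNT cDNA dox and 55612950, 44004848 and 68245492 in shNT dox. Levels are in CPM, reads of a gene scaled to library size, so that 3 reads stood at 0.0447 to 0.0711 CPM in these 6 libraries; this covers counting error only. CPM is not divided by gene length and compares libraries, not genes. CDX2, an intestinal transcription factor, averaged 1900 ± 140 CPM in shNT cDNA dox and 1794 ± 73.1 CPM in shNT dox (SD, n = 3 each), and the epithelial keratin KRT18 averaged 41.6 ± 11.5 and 32.2 ± 1.75 CPM in the same order. The epithelial cadherin CDH1 and the brush border gene VIL1, which also mark colon epithelium, were under 1 CPM in all 6 libraries, at no more than 0.283 and 0.142 CPM.

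The 3 shNT cDNA dox libraries differed from each other more than the 3 shNT dox libraries did. The median gene had a standard deviation of 0.147 on the log2 scale among shNT cDNA dox libraries and 0.0914 among shNT dox libraries. Replicate 1 lay between replicates 2 and 3 of shNT cDNA dox for 9901 of 12891 genes tested (76.8%). Mitochondrially encoded genes took 15.3%, 13.1% and 21.5% of the reads of the 3 shNT cDNA dox libraries, against 9.98%, 10.5% and 13.6% in shNT dox. The means differed by 5.27 percentage points, which an exact two-sided permutation test over the 6 libraries did not separate (p = 0.2, where 0.1 is the smallest possible), and by 2.83 points without replicate 3 of shNT cDNA dox. A log2 difference or list median that turned or moved by more than 1.5 times without replicate 3 of shNT cDNA dox is followed by the value without it in square brackets. This held for 71 of 121 genes named by rule and 22 of 30 lists.

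β-catenin, the product of CTNNB1, works at the membrane and in the nucleus. It ties cadherins to the actin skeleton, and it acts with TCF/LEF factors to switch on Wnt target genes such as AXIN2, which feeds back to degrade it. In the absence of a Wnt signal a complex built on APC and AXIN marks β-catenin for destruction, and colorectal cancers commonly carry a truncated APC, so that nuclear β-catenin is already high. FOS and FOSB, which come up below, are immediate-early genes: they are switched on within minutes of growth factor, calcium or stress signals, need no new protein for it, and encode partners of JUN in the AP-1 transcription factor.

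CTNNB1 was read first because the series title names β-catenin. CTNNB1 (ENSG00000168036, chromosome 3, 41194741 to 41260096, plus strand, GRCh38) stood at 494, 587 and 331 CPM in the 3 shNT cDNA dox libraries, against 313, 325 and 292 CPM in the 3 shNT dox libraries. Every shNT cDNA dox library was above every shNT dox library, but the third was barely so, and the 3 values with the cDNA were spread widely. The mean was 471 ± 130 CPM in shNT cDNA dox and 310 ± 16.6 CPM in shNT dox (SD, n = 3 each), a log2 difference of 0.56 with a standard error of 0.19 and a 95% interval of 0.14 to 0.98. In limma across all genes the unadjusted p was 0.0149 and the adjusted p 0.189, so CTNNB1 was not called; an exact two-sided permutation test gave 0.1, the smallest p that 3 against 3 allows. Without replicate 3 of shNT cDNA dox, the lowest of its group, the log2 difference was 0.79 and passed (limma adjusted p = 0.00033). With any other of the 6 libraries left out in its place CTNNB1 did not pass (limma adjusted p = 0.0686 to 0.419). The order of the 3 shNT cDNA dox libraries for CTNNB1, highest in replicate 2 and lowest in replicate 3, was the reverse of their order in mitochondrial share, and whether the 2 are linked was not tested.

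Without doxycycline the same cDNA label went with a larger difference in CTNNB1. There it averaged 658 ± 117 CPM in shNT cDNA no-dox and 257 ± 4.87 CPM in shNT no-dox (SD, n = 3 each), with a log2 difference of 1.34 that passed (limma adjusted p = 0.00378). In the sh1487 line without doxycycline, CTNNB1 was also higher with the cDNA than without it (log2 difference 1.16, limma adjusted p = 9.41e-08). The difference between the shNT effects on and off doxycycline was −0.78 with a standard error of 0.25, over the 12 shNT libraries. In limma its unadjusted p was 0.008, and it did not pass the adjustment over all genes tested (limma adjusted p = 0.697). The lowest to highest CTNNB1 levels were 331 to 587 CPM in shNT cDNA dox, 525 to 746 CPM in shNT cDNA no-dox, 292 to 325 CPM in shNT dox and 251 to 261 CPM in shNT no-dox; the 2 groups with cDNA overlapped in range and so were not ordered, while each lay above both groups without it.

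**Figure D1:**
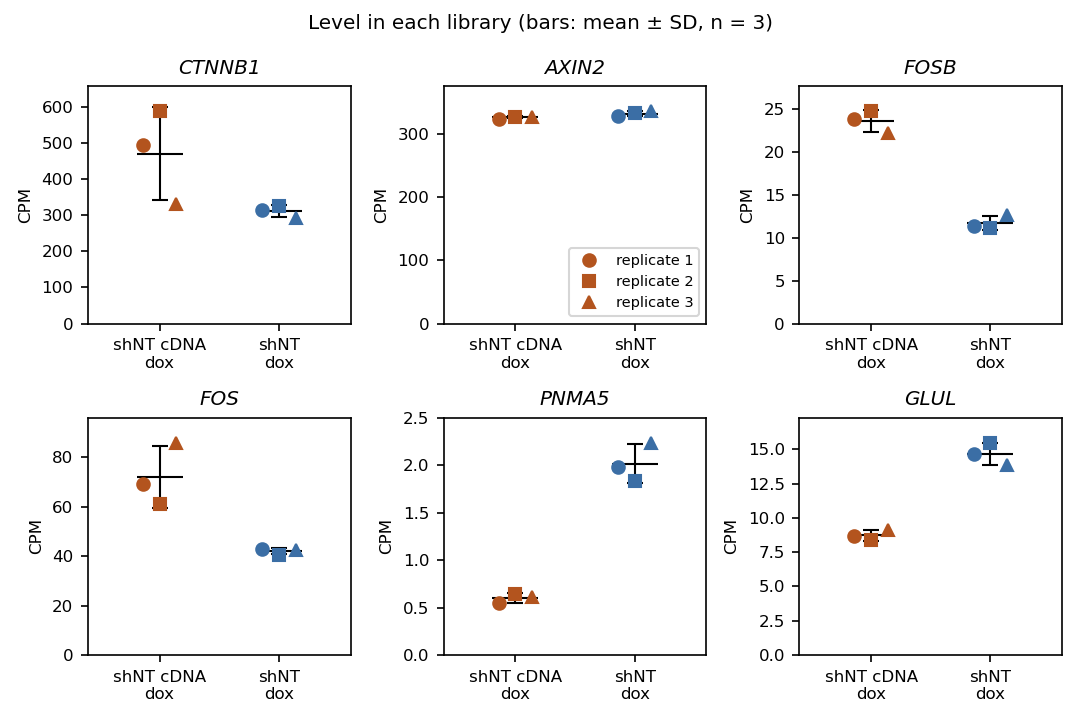
CPM of CTNNB1, AXIN2, FOSB, FOS, PNMA5 and GLUL in each library of shNT cDNA dox (left in each panel) and shNT dox (right); symbols mark replicates and black bars the mean ± SD of 3 libraries. FOSB and PNMA5 are separated with little spread, CTNNB1 has a wide spread among the cDNA libraries (331 to 587 CPM), and AXIN2 is at 324 to 335 CPM in all 6.

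At an adjusted p under 0.05, 2 of 12891 genes tested were called (0.0155%), 1 higher in shNT cDNA dox (0.00776%) and 1 lower (0.00776%). At an unadjusted p under 0.05 there were 3236 genes (25.1%), 1517 higher (11.8%) and 1719 lower (13.3%), and the edgeR quasi-likelihood test on recovered reads also called 2 genes while DESeq2 called 165. Groups that did not overlap were seen for 1976 genes in the higher direction (15.3%) and 2049 in the lower (15.9%). Every list below is to be read against these shares and against a median log2 difference of −0.003 over all genes tested.

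FOSB was higher in shNT cDNA dox. It stood at 23.8, 24.7 and 22.1 CPM in shNT cDNA dox, against 11.3, 11.1 and 12.6 CPM in shNT dox, from 934 to 1499 and 496 to 844 reads a library. The groups were far apart for their spread, and the third cDNA library was in step with the other 2. The mean was 23.5 ± 1.28 CPM in shNT cDNA dox and 11.7 ± 0.802 CPM in shNT dox, 2.02-fold, with a log2 difference of 0.95, a standard error of 0.09 and a limma adjusted p of 0.0391. FOSB (ENSG00000125740) lies on the plus strand of chromosome 19, 45467995 to 45475179 in GRCh38. Across the shNT groups its levels ran from 21.9 to 31.6 CPM in shNT cDNA no-dox, 22.1 to 24.7 CPM in shNT cDNA dox, 18.8 to 20.5 CPM in shNT no-dox and 11.1 to 12.6 CPM in shNT dox. The 2 cDNA groups were not separated by range, and shNT dox was the lowest of the 4. Without doxycycline the cDNA difference in FOSB was 0.42 and did not pass (limma adjusted p = 0.115). With the replicate number as a block, a pairing not established there, it passed (adjusted p = 0.00988, limma). The difference between the effects was 0.53 (unadjusted p = 0.00457, limma adjusted p = 0.697). In the other line FOSB averaged 13.6 CPM in sh1487 cDNA dox and 14.4 CPM in sh1487 dox, which was not tested here.

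FOS (ENSG00000170345), the partner of JUN after which the family is named, had the values 69.3, 60.9 and 85.9 CPM in shNT cDNA dox and 43.1, 40.6 and 42.5 CPM in shNT dox. Every cDNA library was above every shNT dox library, and the log2 difference was 0.75 with a standard error of 0.12. The limma adjusted p of 0.189 did not pass. Without replicate 3 of shNT cDNA dox the difference was 0.62 and passed (limma adjusted p = 0.00271). In the sh1487 line without doxycycline it was −0.16 and did not pass (limma adjusted p = 0.0528). On doxycycline FOS averaged 41.3 CPM in sh1487 cDNA dox and 70.9 CPM in sh1487 dox, which was not tested here. The promoter windows of FOSB and FOS are shown because the one gene that rose and its closest relative are known for control at the promoter; they come from RefSeq on GRCh38.p14, plus strand, 5′ to 3′, and run from before the gene start to shortly after it, 300 bases each. The FOSB window is chr19:45467746-45468045 and the FOS window chr14:75278578-75278877. Capitals mark TGACGT, the first letters of the cAMP response element, and TATAAA, the TATA box.
FOSB: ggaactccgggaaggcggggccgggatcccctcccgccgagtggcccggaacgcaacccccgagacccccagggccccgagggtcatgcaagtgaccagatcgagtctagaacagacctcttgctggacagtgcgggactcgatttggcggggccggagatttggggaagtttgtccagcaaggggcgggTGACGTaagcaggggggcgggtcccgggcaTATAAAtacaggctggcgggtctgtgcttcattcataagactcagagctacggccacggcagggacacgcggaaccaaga
FOS: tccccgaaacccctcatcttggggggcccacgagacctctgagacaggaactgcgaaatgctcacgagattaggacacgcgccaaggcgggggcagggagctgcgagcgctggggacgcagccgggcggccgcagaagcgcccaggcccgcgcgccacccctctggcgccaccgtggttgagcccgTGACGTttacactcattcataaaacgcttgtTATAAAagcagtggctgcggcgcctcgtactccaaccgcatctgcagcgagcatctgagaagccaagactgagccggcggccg
TGACGT began at −60 in FOSB and −64 in FOS, and TATAAA at −30 and −33, counted from the gene start. On both strands, TGACGT was in 7.98% of 35116 promoter windows and TATAAA in 11.5%. Neither window held the full element TGACGTCA (1.85% of windows, and overlapping TGACGT), the AP-1 site, TGANTCA with N any base (7.71%), or the CArG box (1.29%), and the 3 windows of PNMA5 held none of the 5 motifs. Of the 32 immediate-early genes in the table, 24 had windows, 30 in all; TGACGT was in 9 of these and TATAAA in 6. The motifs were chosen after the values were seen, and a match describes letters only. Bases outside these 300-base windows were not searched, so an element farther upstream would not have been found.

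PNMA5, a member of the paraneoplastic Ma antigen family on the X chromosome (ENSG00000198883, minus strand), fell. It stood at 0.548, 0.642 and 0.616 CPM in shNT cDNA dox, which is 24, 39 and 26 reads, against 1.98, 1.84 and 2.24 CPM in shNT dox, or 113, 82 and 150 reads. The groups did not overlap, and the spread was small in both. The mean was 0.602 ± 0.0484 CPM in shNT cDNA dox and 2.02 ± 0.203 CPM in shNT dox; the log2 difference on the log2(CPM + 1) scale was −0.91 (limma adjusted p = 0.0391), and edgeR on recovered reads gave −1.74. PNMA5 passed the filter of 1 CPM in 3 libraries only through the shNT dox group, and it was also called with no filter (limma adjusted p = 0.0244). Without doxycycline it was lower with the cDNA as well, at 0.771 ± 0.0229 CPM in shNT cDNA no-dox and 1.96 ± 0.0872 CPM in shNT no-dox (log2 difference −0.74, limma adjusted p = 0.00469). In all 4 sh1487 groups PNMA5 was under 0.1 CPM.

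The genes next in order of p did not pass and are named after their values were seen. GREB1, an oestrogen-responsive growth regulator in breast, stood at 5.23, 5.36 and 4.03 CPM in shNT cDNA dox and 11.7, 9.34 and 10.6 CPM in shNT dox (log2 difference −0.98, limma adjusted p = 0.0911). GLUL, glutamine synthetase, stood at 8.7, 8.36 and 9.1 CPM against 14.7, 15.5 and 13.8 CPM in the same groups (−0.69, adjusted p = 0.0911). The dopamine receptor gene DRD4 stood at 3.13, 2.4 and 3.39 CPM against 1.16, 1.1 and 1.22 CPM (0.87, adjusted p = 0.0911). TNS3, which links integrins to actin, stood at 0.845, 1.05 and 0.83 CPM against 2.87, 2.46 and 2.06 CPM (−0.86, limma adjusted p = 0.0911). It would not have passed the filter without the shNT dox group, and its log2 difference ran from −1.42 to −0.34 over the alternative settings. In each of the 4 the groups were apart in every library. At a limma adjusted p of 0.163 followed TC2N, the lipoprotein lipase gene LPL, SVIL, FMN2 and the growth factor receptor FGFR2, with log2 differences between −0.89 and −0.60, and CAPN6 at 0.61. The same cDNA label without doxycycline gave calls in the same direction for GREB1 (−1.07, limma adjusted p = 0.00378), GLUL (−0.65, 0.00815), TC2N (−0.70, 0.00521), SVIL (−1.01, 0.00463), FMN2 (−0.60, 0.0322) and CAPN6 (0.63, 0.0111). For DRD4 (0.48, limma adjusted p = 0.14), TNS3 (−0.39, 0.109), LPL (−0.18, 0.301) and FGFR2 (−0.40, 0.0528) it did not. With the replicate number as a block DRD4 (limma adjusted p = 0.012), TNS3 (0.0206) and FGFR2 (0.00338) passed there and LPL (0.214) did not. In the sh1487 line without doxycycline the cDNA went with calls in the same direction for GREB1 (−0.32, limma adjusted p = 0.002) and FMN2 (−0.32, 0.0153), and in the opposite direction for CAPN6 (−0.37, 0.00311) and TNS3 (0.42, 0.00643). There GLUL (−0.05), SVIL (−0.0053), DRD4 (0.14), FGFR2 (−0.08) and FOSB (0.0018) did not pass, with limma adjusted p from 0.3 to 0.987, and PNMA5, TC2N and LPL were under the filter.

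Leaving out replicate 3 of shNT cDNA dox, 76 of 12806 genes passed (0.593%), 36 higher (0.281%) and 40 lower (0.312%). Of the 76, 14 were also called without doxycycline, where 0.742% of all genes were. Beside FOSB, FOS and CTNNB1, the higher ones held NKD2, DRD4, CAPN6, the scaffold genes SORBS2 (0.49) and AKAP12 (0.58), and the NPIP family on chromosome 16, whose near-identical copies share reads and are uncertain. The lower ones held GREB1, GLUL, LPL, FGFR2, MET, a receptor tyrosine kinase (−0.48), TFRC, the transferrin receptor (−0.54), the integrin gene ITGA2 (−0.57) and INHBB, an activin subunit (−0.53). TFRC shows how much the third library weighed: it stood at 222, 309 and 140 CPM in shNT cDNA dox and 386, 412 and 350 CPM in shNT dox, with a log2 difference of −0.84 [−0.54] over all 6 libraries (limma adjusted p = 0.189).

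Differences in the cDNA libraries followed gene length. Genes were put in 5 classes by the length given in the deposited table. In the shortest class, 67 to 2827 bases, the median log2 difference from the shNT dox mean was 0.14, 0.04 and 0.30 in replicates 1, 2 and 3 of shNT cDNA dox. In the longest class, 8131 to 118976 bases, it was −0.14, −0.02 and −0.29. The replicates kept the order of their mitochondrial shares in both classes, and the shNT dox libraries stayed between −0.01 and 0.01 around their own mean. Groups did not overlap in the higher direction for 25.6% of the shortest class and 7.10% of the longest, and in the lower direction for 4.27% and 26.4%. Without doxycycline the same medians were 0.07, −0.02 and 0.13 in the shortest class and −0.08, 0.01 and −0.17 in the longest for replicates 1, 2 and 3 of shNT cDNA no-dox, set against the shNT no-dox mean. With a length trend taken out of each library, chosen after seeing the data, 2 genes were again called, and CTNNB1 stood at 0.63 (limma adjusted p = 0.18). RNA quality was not assessed here, and its part in the length trend or in any list below was not tested.

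**Figure D2:**
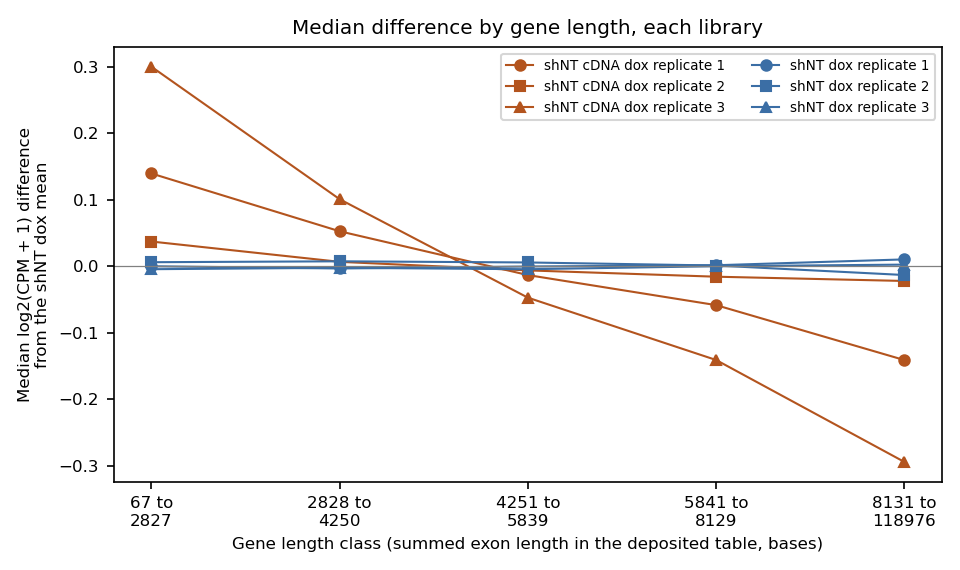
Median log2(CPM + 1) difference from the shNT dox mean in 5 classes of gene length, one line per library of shNT cDNA dox (first in the legend) and shNT dox. Replicate 3 of shNT cDNA dox runs from 0.30 in the shortest class to −0.29 in the longest, replicate 2 from 0.04 to −0.02, and the shNT dox libraries, drawn around their own mean, stay near 0.

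Of the Wnt/β-catenin target genes, 0 were called (limma; 3 higher and 6 lower at an unadjusted p under 0.05): 41 tested, 18 above 0 and 23 below, median −0.06 [−0.0049], 6 not overlapping in the higher direction and 6 in the lower. AXIN2, the feedback inhibitor that follows nuclear β-catenin, stood at 324, 327 and 326 CPM in shNT cDNA dox and 327, 333 and 335 CPM in shNT dox. Its level was nearly the same in all 6 libraries, the third cDNA library included, with a log2 difference of −0.03 and a 95% interval of −0.21 to 0.16. LGR5, the stem cell receptor, had a log2 difference of −0.07 [0.03] (interval −0.35 to 0.21), LEF1, a DNA-binding partner of β-catenin, 0.05 (−0.16 to 0.26), and RNF43, which clears Wnt receptors, −0.09 [−0.05] (−0.28 to 0.10). The intervals were wider for ASCL2, a stem cell transcription factor, at 0.19 [0.04] (−0.12 to 0.50), and for the feedback gene NKD1 at −0.27 [−0.17] (−0.62 to 0.08). NOTUM, which inactivates Wnt ligands, stood at 49.6, 47.1 and 49.2 CPM in shNT cDNA dox and 44.7, 42.8 and 41.1 CPM in shNT dox (0.18, limma adjusted p = 0.209).

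NKD2, which binds Dishevelled and dampens the pathway, had the smallest p of these targets. It stood at 184, 157 and 214 CPM in shNT cDNA dox and 134, 120.0 and 125 CPM in shNT dox. Every cDNA library was above every shNT dox library; the log2 difference was 0.54 (limma adjusted p = 0.189), and 0.43 without replicate 3 of shNT cDNA dox, which passed (adjusted p = 0.0474). The next targets by p were lower: the ion transporter gene SLC12A2 (−0.69), the ephrin receptor gene EPHB2 (−0.37) and the receptor gene TNFRSF19 (−0.41), each at a limma adjusted p of 0.189. MYC stood at 2790, 3553 and 2346 CPM in shNT cDNA dox and 3776, 3628 and 3526 CPM in shNT dox. The second cDNA library was within the shNT dox range, and the log2 difference of −0.35 [−0.21] did not pass (limma adjusted p = 0.202).

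Wnt pathway components had 0 calls (limma; 2 higher and 11 lower at an unadjusted p under 0.05): 43 tested, 14 above 0 and 29 below, median −0.11 [−0.05], 4 not overlapping in the higher direction and 10 in the lower. The 4 with the smallest p were lower, each at a limma adjusted p of 0.189: the deubiquitinase gene USP34 (−0.56 [−0.38]), the tankyrase gene TNKS2 (−0.51), FBXW11, which recruits tagged β-catenin to a ubiquitin ligase (−0.72 [−0.41]), and the priming kinase gene CSNK1A1 (−0.87 [−0.47]). CSNK1A1 stood at 46.5, 64.6 and 23.2 CPM in shNT cDNA dox and 76.1, 78.8 and 73.6 CPM in shNT dox, lowest in the third cDNA library. The rest of the destruction complex was looked up after values were seen. The scaffold gene APC stood at 42.3, 55.9 and 34.5 CPM in shNT cDNA dox and 54.3, 54 and 60.8 CPM in shNT dox, with overlapping groups (−0.37 [−0.21]), GSK3B, its kinase, at 68.2, 76.8 and 53.7 CPM against 80.2, 82.3 and 85.6 CPM in the same groups (−0.33 [−0.19]), and the scaffold gene AXIN1 at 82, 75.7 and 84 CPM against 87, 81.3 and 69.9 CPM (0.02 [−0.01], interval −0.21 to 0.26). None of the 4 passed. TCF7L2, the main TCF of the intestine, stood at 35.8, 37.2 and 34.7 CPM in shNT cDNA dox and 28.2, 29.4 and 39 CPM in shNT dox, with overlapping groups.

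Catenin and cadherin adhesion genes had 0 calls (limma; 0 higher and 6 lower at an unadjusted p under 0.05): 15 tested, 4 above 0 and 11 below, median −0.23 [−0.15], 1 not overlapping in the higher direction and 6 in the lower. Desmosome genes were among the 4 with the smallest p. DSG2, a desmosomal cadherin, stood at 305, 388 and 212 CPM in shNT cDNA dox and 432, 440.5 and 411 CPM in shNT dox, and DSP, which anchors keratin there, at 309, 369.9 and 225 CPM against 416, 389 and 402 CPM in the same groups. Vinculin (VCL) had a log2 difference of −0.44 [−0.28] and the plakophilin gene PKP2 of −0.41 [−0.24]. The other catenins, looked up after values were seen, were CTNNA1 (α-catenin) at −0.25 [−0.15], CTNND1 (p120) at −0.22 [−0.08] and JUP (plakoglobin, which can stand in for β-catenin) at 0.02 [−0.02], and none passed. The list's median was −0.23, −0.08 and −0.45 in replicates 1, 2 and 3 of shNT cDNA dox, the order of the length trend, and −0.15 without replicate 3. Without doxycycline it was −0.16.

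Among immediate-early genes 1 was called, FOSB: 30 tested, 21 above 0 and 9 below, median 0.16 [0.06], 11 not overlapping in the higher direction and 3 in the lower. The median was 0.13, 0.07 and 0.36 in replicates 1, 2 and 3 of shNT cDNA dox, and 0.06 without replicate 3. After FOSB and FOS, the smallest p belonged to JUND, at 213, 184 and 291 CPM in shNT cDNA dox and 147, 139.8 and 164 CPM in shNT dox, and JUNB, at 47.7, 44.4 and 58.8 CPM against 37.1, 36.2 and 39.1 CPM in the same groups. Both were apart in every library and did not pass (limma adjusted p = 0.189 each). Other members were looked up after values were seen. JUN stood at 313, 269 and 428 CPM in shNT cDNA dox and 249, 233 and 257 CPM in shNT dox and did not overlap, IER2 had a log2 difference of 0.45 [0.26] with overlap, ATF3 of 0.19 [0.10] without, and the phosphatase gene DUSP1 of 0.03 [0.02] (interval −0.17 to 0.22). JUND, JUNB, JUN and FOS were highest in the third cDNA library, as were the medians of the 2 classes of shortest genes; FOSB was lowest there.

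Several lists had their highest median in the third cDNA library, and 0 of their genes were called with or without it. Cytosolic ribosomal proteins (limma; 23 higher and 0 lower at an unadjusted p under 0.05) had 50 tested, 49 above 0 and 1 below, median 0.30 [0.17], 24 not overlapping in the higher direction and 0 in the lower. Their median was 0.25, 0.09 and 0.63 in replicates 1, 2 and 3. RPL28 stood at 920.0, 825 and 1368 CPM in shNT cDNA dox and 594, 622 and 733 CPM in shNT dox, and RPS15 (0.57 [0.37]), RPS28 (0.43) and RPL32 (0.50 [0.32]) followed. Mitochondrially encoded mRNAs (11 higher at an unadjusted p under 0.05) had 13 tested, 13 above 0 and 0 below, median 0.64 [0.35], 2 not overlapping in the higher direction and 0 in the lower, with medians of 0.49, 0.23 and 1.16 by replicate. MT-CO2, a subunit of cytochrome oxidase, stood at 13080, 10974 and 20268 CPM in shNT cDNA dox and 8049, 8544 and 10953 CPM in shNT dox; MT-ND4L (0.69 [0.45]), MT-ND6 (0.75 [0.47]) and MT-ND5 (0.64 [0.40]), of complex I, were alike.

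Nuclear oxidative phosphorylation genes had 36 tested, 28 above 0 and 8 below, median 0.15 [0.06], 10 not overlapping in the higher direction and 4 in the lower, with COX7A2 at 0.46, ATP5G1 at 0.45, NDUFA1 at 0.52 [0.31] and NDUFS1 at −0.36. Canonical histone genes had 17 tested, 16 above 0 and 1 below, median 0.11 [0.07], 1 not overlapping in the higher direction and 0 in the lower, with HIST1H4I at 0.36, HIST2H2BE at 0.26 [0.17], H2AFX at 0.32 [0.18] and H3F3A at 0.33 [0.16]; poly(A) selection captures only part of histone RNA. Nuclear-retained and noncoding RNAs had 9 tested, 6 above 0 and 3 below, median 0.22 [0.10], 3 not overlapping in the higher direction and 1 in the lower, with ZFAS1 at 0.55 [0.35], SNHG12 at 0.38 [0.18], SNHG8 at 0.23 [0.13] and NORAD at −0.36. Without replicate 3 of shNT cDNA dox the medians were 0.17 for ribosomal proteins, 0.35 for mitochondrial mRNAs, 0.06 for nuclear oxidative phosphorylation, 0.07 for histones and 0.10 for noncoding RNAs.

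**Figure D3:**
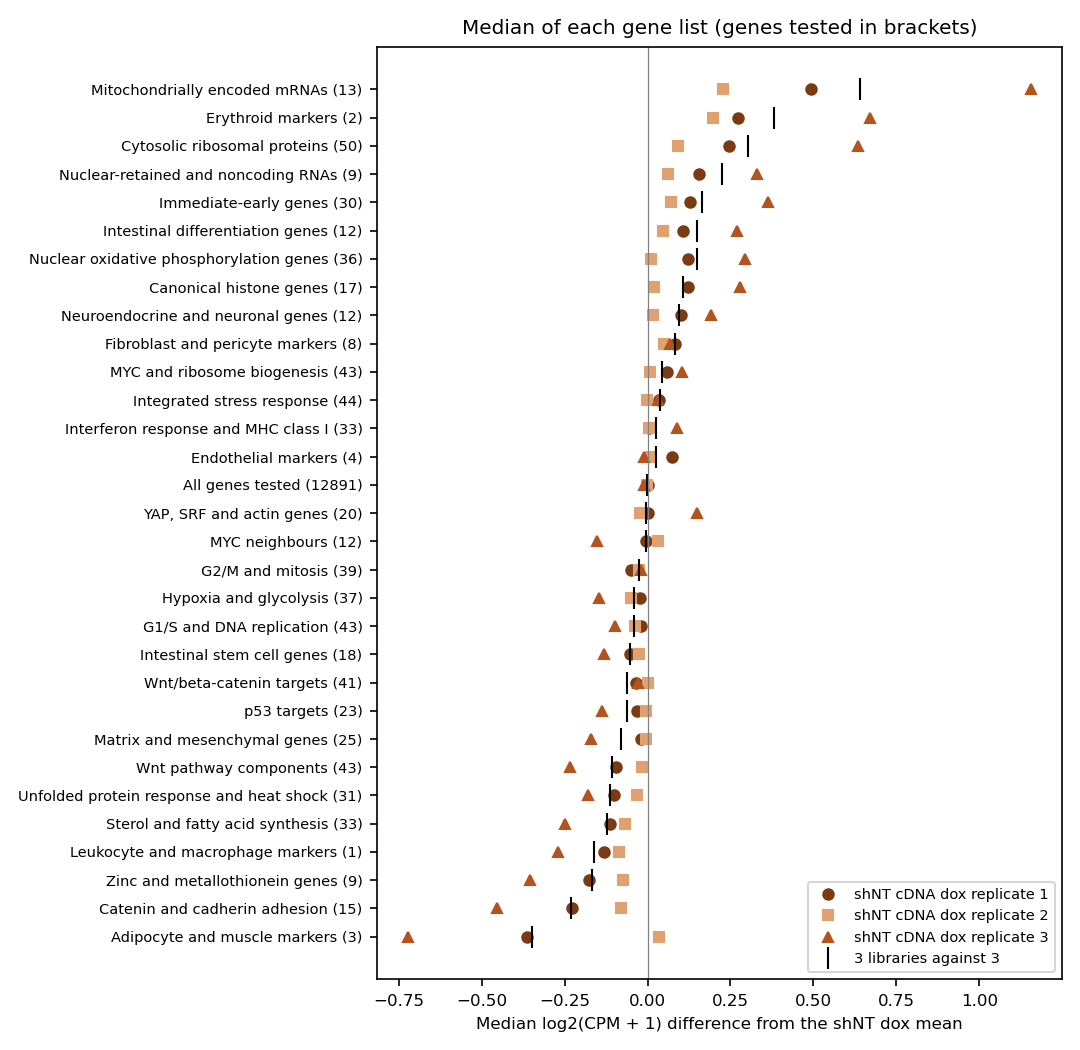
Median log2(CPM + 1) difference from the shNT dox mean of 30 gene lists and of all genes tested, in each shNT cDNA dox library (symbols) and for 3 libraries against 3 (black tick); numbers of genes tested in brackets. Mitochondrially encoded mRNAs have the highest median (0.64 [0.35]), catenin and cadherin adhesion genes are at −0.23 [−0.15], and in both replicate 3 lies farthest from 0.

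Stress lists were split. The integrated stress response, by which cells slow translation and induce ATF4 targets, had 0 calls: 44 tested, 23 above 0 and 21 below, median 0.04 [0.01], 11 not overlapping in the higher direction and 5 in the lower. The glutathione-degrading enzyme gene CHAC1 stood at 8.08, 6.56 and 9.05 CPM in shNT cDNA dox and 5.05, 5.37 and 5.52 CPM in shNT dox, and DDIT3, which encodes CHOP, at 27.5, 21.9 and 39.2 CPM against 18.3, 17.2 and 20.2 CPM in the same groups. The transcription factor gene CEBPB (0.53) and the stress gene NUPR1 (0.58 [0.37]) followed, and all 4 had a limma adjusted p of 0.189. The unfolded protein response and heat shock list had 0 calls: 31 tested, 12 above 0 and 19 below, median −0.11, 3 not overlapping in the higher direction and 9 in the lower. HSPA8, the constitutive HSC70 chaperone, stood at 780.1, 1066 and 484 CPM in shNT cDNA dox and 1272, 1300 and 1294 CPM in shNT dox. SEL1L, which serves degradation from the endoplasmic reticulum, had a log2 difference of −0.76 [−0.47], DNAJC3 of −0.32 and the small heat shock gene HSPB1 of 0.75. SEL1L passed without replicate 3 of shNT cDNA dox (−0.47, limma adjusted p = 0.0474).

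Metabolic and growth lists had no call. Sterol and fatty acid synthesis had 33 tested, 8 above 0 and 25 below, median −0.12 [−0.07], 4 not overlapping in the higher direction and 10 in the lower. STARD4, a sterol carrier, stood at 33.8, 42.7 and 28.3 CPM in shNT cDNA dox and 44.5, 49.5 and 51.4 CPM in shNT dox, beside the acetyl-CoA synthetase gene ACSS2 at 0.32 and the sterol demethylase gene CYP51A1 at −0.98 [−0.50]. Hypoxia and glycolysis had 37 tested, 12 above 0 and 25 below, median −0.04, 5 not overlapping in the higher direction and 6 in the lower, with EGLN3 at 0.35 [0.22], SLC2A3 at −0.36, HK1 at −0.35 [−0.22] and PGK1 at −0.48 [−0.22]. SLC2A3, like PNMA5, passed the filter of 1 CPM in 3 libraries only through the shNT dox group. G1/S and DNA replication had 43 tested, 17 above 0 and 26 below, median −0.04, 3 not overlapping in the higher direction and 13 in the lower. The ribonucleotide reductase gene RRM2 stood at 234, 253 and 202 CPM in shNT cDNA dox and 271, 294 and 283 CPM in shNT dox, with ORC1 at −0.51 [−0.33], POLA1 at −0.38 [−0.25] and GINS4 at −0.41 [−0.24]. G2/M and mitosis had 39 tested, 17 above 0 and 22 below, median −0.03, 2 not overlapping in the higher direction and 6 in the lower, with AURKB at 0.34 [0.21], ECT2 at −0.77 [−0.39], BUB1 at −0.29 [−0.19] and TOP2A at −0.35 [−0.22]. MYC and ribosome biogenesis had 43 tested, 25 above 0 and 18 below, median 0.04 [0.01], 4 not overlapping in the higher direction and 3 in the lower, with NOP56 at 0.29 [0.19], NOP16 at 0.41 [0.26], DDX18 at −0.42 [−0.28] and DDX21 at −0.65 [−0.35]. The neighbours of MYC, in a region amplified outside the chromosomes in COLO320DM, had 12 tested, 6 above 0 and 6 below, median −0.01 [0.03], 3 not overlapping in the higher direction and 2 in the lower. PVT1 stood at 306, 398 and 216 CPM in shNT cDNA dox and 496, 431 and 359 CPM in shNT dox, with overlapping groups, beside TRIB1 at 0.26, ASAP1 at −0.32 [−0.19] and FAM84B at −0.27.

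Lists of cell identity and environment had no call either. Intestinal stem cell genes had 18 tested, 6 above 0 and 12 below, median −0.05, 3 not overlapping in the higher direction and 5 in the lower. CD24, a surface glycoprotein, stood at 44.4, 44.2 and 44.1 CPM in shNT cDNA dox and 51.9, 57.5 and 54.8 CPM in shNT dox, alike in all 3 cDNA libraries (−0.30, limma adjusted p = 0.189); ZNRF3, which clears Wnt receptors, was at −0.25 [−0.16]. Intestinal differentiation genes had 12 tested, 10 above 0 and 2 below, median 0.15 [0.09], 1 not overlapping in the higher direction and 2 in the lower, with FABP2 at 0.40, KRT8 at 0.33 [0.20], KRT20 at −0.40 and CEACAM1 at −0.34. Neuroendocrine and neuronal genes had 12 tested, 8 above 0 and 4 below, median 0.10 [0.03], 3 not overlapping in the higher direction and 2 in the lower, with NCAM1 at −0.21, SSTR2 at 0.22 [0.14], HDC at 0.25 [0.15] and GAP43 at 0.29. Interferon response and MHC class I genes had 33 tested, 19 above 0 and 14 below, median 0.03 [0.0011], 5 not overlapping in the higher direction and 2 in the lower, with IRF9 at 0.38, IFITM3 at 0.49 [0.31], ISG15 at 0.47 [0.31] and IFITM1 at 0.33 [0.21].

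YAP, SRF and actin genes had 20 tested, 10 above 0 and 10 below, median −0.004 [−0.01], 2 not overlapping in the higher direction and 2 in the lower, with FLNA at −0.46 [−0.28] and AMOTL2 at −0.38 [−0.19] beside VCL; TMSB10, an actin-binding peptide gene, was at 0.61 and passed without replicate 3 of shNT cDNA dox (0.42, limma adjusted p = 0.0481). The p53 targets had 23 tested, 9 above 0 and 14 below, median −0.06 [−0.04], 0 not overlapping in the higher direction and 3 in the lower, with RRM2B at −0.53 [−0.28], TNFRSF10B at −0.28, XPC at −0.42 [−0.21] and TIGAR at −0.23. Zinc and metallothionein genes had 9 tested, 3 above 0 and 6 below, median −0.17, 1 not overlapping in the higher direction and 3 in the lower, with SLC39A14 at −0.58 [−0.33], SLC39A6 at −0.53 [−0.28], SLC39A10 at −0.45 [−0.24] and MT1A, whose near-identical relatives can share its reads, at 0.64. Matrix and mesenchymal genes had 25 tested, 9 above 0 and 16 below, median −0.08 [−0.01], 2 not overlapping in the higher direction and 7 in the lower, with HAPLN1 at −0.42, ITGB1 at −0.47 [−0.29] and LAMC1 at −0.49 [−0.29]. Among them COL13A1, a membrane collagen, stood at 144, 141 and 143 CPM in shNT cDNA dox and 192, 194 and 183 CPM in shNT dox. Its groups were far apart and replicate 3 with the cDNA was in step with the others; the log2 difference was −0.41 (limma adjusted p = 0.189), and it passed without replicate 3 of shNT cDNA dox (adjusted p = 0.0398).

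Markers of other cell types were few in this table of human genes, and 0 of them were called. Fibroblast and pericyte markers, 11 of 18 in the table, summed to 341 to 370 CPM in shNT cDNA dox and 336 to 401 CPM in shNT dox, with FBLN1 the most abundant at a mean of 207 CPM and FAP, PDGFRA and ACTA2 under 1 CPM; RGS5 (0.30), COL5A2 (−0.33 [−0.19]), COL3A1 (−0.35 [−0.17]) and TAGLN (0.29) had the smallest p. Endothelial markers, 6 of 15, summed to 141 to 153 CPM in shNT cDNA dox and 146 to 148 CPM in shNT dox, led by ERG at a mean of 76.4 CPM, with FLT1 under 1 CPM; the values were EGFL7 (0.26 [0.15]), ERG (−0.20 [−0.13]), ENG (0.04) and ESAM (0.01 [0.04]). Leukocyte and macrophage markers, 5 of 18, summed to 26.9 to 30.8 CPM in shNT cDNA dox and 29.6 to 35.2 CPM in shNT dox, mostly PTPRC (−0.16), and CSF1R, ITGAM and MRC1 were under 1 CPM in all 6 libraries.

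Erythroid markers, 3 of 8, summed to 3.34 to 4.88 CPM in shNT cDNA dox and 2.12 to 2.80 CPM in shNT dox, without overlap; HBA1 (0.45) and HBA2 (0.31 [0.17]) are near-identical copies whose counts are uncertain. Adipocyte and muscle markers, 5 of 14, summed to 33.1 to 47.2 CPM in shNT cDNA dox and 43.4 to 51.0 CPM in shNT dox, led by TTN (−0.35 [−0.16]), with CFD (0.29). LPL of this list stood at 1.28, 1.76 and 1.4 CPM in shNT cDNA dox and 2.8, 3.16 and 2.91 CPM in shNT dox and passed without replicate 3 of shNT cDNA dox (adjusted p = 0.01, limma). The tumours were xenografts of a human line and GRCh38 was the only build named, so these marker levels may not count host cells. Whether the reads came from the line or from host cells was not tested. In bulk RNA, fewer cells of a type and less RNA per cell cannot be told apart, and the part of other cells in any result was not tested.

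The effect on doxycycline was then set beside the same cDNA label without it. The 2 effects share no library, but both set Model3 against Model1. Without doxycycline 96 of 12936 genes were called (0.742%), 24 higher (0.186%) and 72 lower (0.557%). Same-numbered libraries had residual correlations of 0.11, 0.17 and 0.67 there. Replicate 2 of shNT cDNA no-dox, though, correlated more with replicate 1 of shNT no-dox (0.55). A block by replicate number gave 1929 calls in limma, the 96 among them. That fit was added after seeing the data. The difference between the effects was called for 0 of 13114 genes in limma over the 12 shNT libraries, with 894 at an unadjusted p under 0.05 (6.82%); DESeq2 called 8. Of the 119 named genes plotted, 103 had the same sign on and off doxycycline, as did 73.6% of all 12769 genes tested in both. Most of the 119 were picked for a small p on doxycycline. Same-numbered libraries of shNT cDNA dox and shNT cDNA no-dox had residual correlations of 0.02, 0.84 and 0.85. Replicates 2 and 3 thus departed from their own group mean in a like way in both cDNA groups, and replicate 1 did not. These departures lie within groups, and their part in the count of same signs was not tested.

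**Figure D4:**
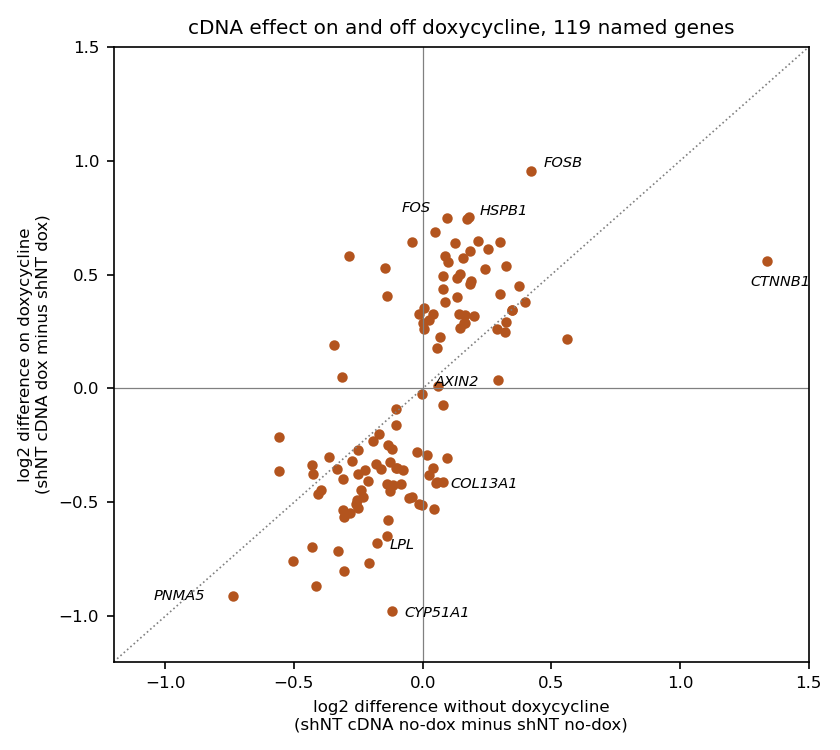
log2 difference with the cDNA on doxycycline (shNT cDNA dox minus shNT dox, vertical) against the same without doxycycline (shNT cDNA no-dox minus shNT no-dox, horizontal) for the 119 genes named by rule with a value in both; the dotted line marks equal effects. CTNNB1 (0.56 on, 1.34 off) lies below the line, and FOSB (0.95 on, 0.42 off) and FOS (0.75 on, 0.09 off) lie above it.

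The genes with the smallest p for that difference are given after their values were seen, and none passed. For EGR1, a zinc finger transcription factor of the immediate-early response, the means were 204 CPM in shNT cDNA dox and 158 CPM in shNT dox, and 318 CPM in shNT cDNA no-dox and 402 CPM in shNT no-dox. The EGR1 effects were 0.38 on and −0.34 off doxycycline and differed by 0.71 (limma adjusted p = 0.697). For FOS the means were 72 CPM in shNT cDNA dox and 42.1 CPM in shNT dox, and 87 CPM in shNT cDNA no-dox and 81.2 CPM in shNT no-dox. In FOSB, FOS and EGR1 alike, shNT dox had the lowest mean of the 4 groups.

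COL13A1 differed by −0.47, with 143 CPM in shNT cDNA dox and 189.9 CPM in shNT dox, and 195 CPM in shNT cDNA no-dox and 187 CPM in shNT no-dox; here shNT cDNA dox was the lowest. ETV4, an ETS transcription factor, had the smallest p, with effects of 0.16 on and −0.41 off doxycycline (limma adjusted p = 0.697). ACAT2 of the sterol pathway had 74.5 CPM in shNT cDNA dox and 76 CPM in shNT dox, and 46.8 CPM in shNT cDNA no-dox and 33.9 CPM in shNT no-dox. The sterol list's median was −0.12 [−0.07] on and 0.17 off doxycycline, where 17 of 33 did not overlap in the higher direction (12.1% of all genes) and 2 were called, or 11 with the replicate block. The G1/S list's was −0.04 on and 0.21 off, where 28 of 43 did not overlap in the higher direction and 3 were called, or 20 with the block. Whether the medians differ was not tested.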

How the data were processed

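RNA-seq of 24 COLO320DM xenograft libraries was deposited by the authors as one table of 14119 genes, with a gene length and 1 value per library, a signal in CPM on a scaled library size. The kit selected poly(A) RNA and kept strand, per the labels' protocols. Per the submitters' processing notes, the tools and build named are Subread 2.4.2 with featureCounts, edgeR 4.0.2, Trimmomatic 0.39, GRCh38 and STAR 2.7.7a, without their roles. Dividing each column by the worth of 1 read gave whole reads for 100% of values (tolerance 0.001). Positions are from GENCODE v29.

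A gene was tested where 3 or more libraries of a fit reached 1 CPM, on log2(CPM + 1), which understates the change of low genes, with limma 3.58.1 (trend, two-sided, R 4.3.3), on the 6 libraries of shNT cDNA dox and shNT dox alone, and on the 12 shNT libraries for the difference of effects. Benjamini-Hochberg adjustment ran over all genes tested, with calls at 0.05. Count tests were planned for counts only, so edgeR 4.0.16, DESeq2 1.42.0 and limma-voom on recovered reads are alternatives, beside normalization, filter, pseudocount, shared spread, library weights, replicate block and leaving out each library. Removal of replicate 3 of both groups, the mitochondrial share as a covariate removal of a length trend and, without doxycycline, a replicate block were added after seeing the data. The comparison, its genes and the 30 gene lists were chosen with earlier results of these data known. Genes are named by a rule: CTNNB1, genes called, up to 4 of each list by smallest p with a mean of at least 1 CPM, and AXIN2, LGR5, MYC, ASCL2, LEF1, NKD1, NOTUM and RNF43; the others are markers or were chosen after their values were seen. A gene that this rule names is not reported here. The fits were tested on simulated data with the spread of the shNT dox group in every library, so the wider spread of shNT cDNA dox was not covered. Same-numbered libraries of shNT cDNA dox and shNT dox were not treated as pairs (residual correlations 0.20, −0.04 and 0.04). Those of shNT cDNA no-dox and shNT no-dox had 0.11, 0.17 and 0.67. Replicate 2 of shNT cDNA no-dox correlated more with replicate 1 of shNT no-dox (0.55), so pairing by number was not established there either.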

Additional observations from a re-analysis of the deposited data

How the results depend on the processing

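Of the genes called on doxycycline (2 in the report), the count was 4907 with a spread shared over 24 libraries (2227 higher, 2680 lower), 8097 with library weights (3943 and 4154), 165 in DESeq2 on recovered reads (121 and 44), 921 without replicate 3 of both groups (469 and 452), 1 with no filter (PNMA5), 1 at a mean of at least 5 CPM (FOSB), and 0 with a pseudocount of 5, on library size alone, at 2-fold or more, or with the mitochondrial share as a covariate; edgeR, limma-voom, a pseudocount of 0.1, DESeq2 size factors, a total without mitochondrial reads and the removed length trend gave 2. Leaving out 1 library gave 0 to 4189: 4189 without shNT cDNA dox replicate 2, 76 without replicate 3 of that group, and 0 without each of the other 4. Why these counts differ was not tested. The 2-fold cut was on the log2(CPM + 1) scale, where FOSB stood at 0.95 and PNMA5 at −0.91. As a ratio of mean CPM, shNT cDNA dox over shNT dox, FOSB was at 2.02 and PNMA5 at 0.298. limma's default weights did not converge and were replaced by its gene-by-gene method after this was seen; they gave 10.5 to replicate 1 of shNT cDNA dox and 0.166 to replicate 3. With the replicate number as a block 0 genes were called; the residual correlations of same-numbered libraries were 0.20, −0.04 and 0.04, so the numbers were not taken as pairs, and not every library correlated best with its own number. Without doxycycline, where the same-numbered correlations were 0.11, 0.17 and 0.67, the block raised the count of 96 to 1929 (843 higher, 1086 lower). There too, not every library correlated best with its own number. For the difference of effects (0 in the report) the count was 8 with 24 libraries, 2641 with library weights, 8 in DESeq2, and 0 in every other setting, the block and each of 12 libraries left out among them.

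CTNNB1 was higher with the cDNA in all 22 alternatives, by 0.38 to 1.02 on the log2 scale, and passed in 4: 24 libraries (0.56, limma adjusted p = 0.011), library weights (0.62), without replicate 3 of shNT cDNA dox (0.79; leaving out 1 library gave 0.38 to 0.79) and without replicate 3 of both groups (0.75). FOSB passed in 13 of 22 alternatives (0.78 to 1.05) and PNMA5 in 12 of 17 (−1.74 to −0.325); without a shNT dox library PNMA5 was under the filter. The mitochondrial difference was 2.83 to 7.03 points with 1 library left out. Signs turned for 21 of the 152 genes named, none of them called: with the mitochondrial share as a covariate for ASCL2 (−0.0859), COL3A1 (0.0543), CTNND1 (0.0378), FBLN1 (0.0267), H3F3A (−0.0553), JUP (−0.0183), KRT18 (−0.0274), LEF1 (−0.00784), LGR5 (0.0636), NKD1 (0.0504), PGK1 (0.0189), PVT1 (0.0239), TTN (0.0363) and XPC (0.00353); on library size alone for AXIN1 (−0.0632), CDX2 (−0.0087), DUSP1 (−0.0574), ENG (−0.0227), ESAM (−0.0666), JUP (−0.0722) and LEF1 (−0.0404). They turned with library weights for AXIN1 (−0.00526), DUSP1 (−0.0108), ENG (−0.0557) and JUP (−0.015), with the length trend removed for AXIN2 (0.0047), DUSP1 (−0.123), ESAM (−0.0749), FBLN1 (0.0754) and SNHG8 (−0.014), without replicate 3 of both groups for AXIN1 (−0.0938), CDX2 (−0.00958), ENG (−0.0384), JUP (−0.0659) and LGR5 (0.0983). Leaving out 1 library turned AXIN1 (−0.063 to 0.0931), ENG (−0.0453 to 0.146), ESAM (−0.0223 to 0.0472), FBLN1 (−0.106 to 0.044), JUP (−0.029 to 0.0518) and LGR5 (−0.169 to 0.027). Library size alone moved the median of all genes to −0.08. PNMA5 rests on 24 to 39 reads a library in shNT cDNA dox and 82 to 150 in shNT dox, and a change in genes of fewer reads may not be detectable at this depth.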
